A study of Homo sapiens with 24 samples.

Results

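PLAU, PLAUR, PLAT and SERPINE2 are 4 genes of the plasminogen activation system, and each was taken by its symbol from the deposited count table, which lists 59251 genes. All 4 were found once and all 4 passed the filter on low counts, as did 20820 genes in all. Their levels were followed across 6 groups of 4 libraries each, made from 2 derivatives of MCF10A, an established line of non-transformed human breast epithelial cells. MCF10A PM is the derivative labelled as MYC-transformed and MCF10A PE the one labelled as non-transformed. The groups were PM with the CHD1 hairpin B (shCHD1 B), PM with the CHD1 hairpin A (shCHD1 A), PM with a hairpin against GFP (shGFP), PE with the CHD1 hairpin B, PE with the CHD1 hairpin A, and PE with the GFP hairpin. CHD1 is a chromatin remodeller, and the series asks about its loss in MYC-driven breast cancer cells. Every culture, controls included, received doxycycline at 50 ng/ml for 72 h in medium with horse serum, EGF, hydrocortisone, cholera toxin and insulin, and poly(A) RNA was sequenced. No culture without a hairpin or without doxycycline was analysed here, and the labels do not say whether each derivative is 1 clone. The replicates are labelled biological, with no word on whether they were grown apart, so each p-value measures the spread between these libraries.

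Plasminogen is an inactive protease precursor that urokinase (PLAU) or tissue-type plasminogen activator (PLAT) cleaves to plasmin, which degrades fibrin and matrix proteins and activates other proteases. Urokinase works mostly at the cell surface, where it is bound by its receptor uPAR (PLAUR), a protein held in the membrane by a glycolipid anchor. Serpins such as protease nexin-1 (SERPINE2) trap both activators in inactive complexes, which cells take up through receptors of the LDL receptor family. In the breast, the system takes part in the remodelling of the gland and is studied as a mark of invasive tumours.

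The libraries held 4.14 M to 93.3 M counts, with a median of 49.5 M. CHD1 itself fell by 1.61 on the log2 scale in PM with hairpin B and by 1.54 in PM with hairpin A, each against PM with the GFP hairpin. In PE it fell by 1.48 with hairpin B and by 1.42 with hairpin A. MYC was 0.91 higher on the log2 scale in PM than in PE under the GFP hairpin. With hairpin B in PM, MYC was 0.40 lower than with the GFP hairpin (edgeR, adjusted p = 3.58e-06). The effect of hairpin B on MYC differed between the lines by -0.40 (PM minus PE, adjusted p = 0.00546). The part of MYC in the changes of the 4 genes was not tested. The shallowest library, PE with the GFP hairpin replicate 1, held the lowest count of any of the 4 genes, 53 counts of PLAT. PM with hairpin B replicate 3 had counts for 33137 genes, against 18380 to 24764 in the other libraries. The 12 markers of breast epithelium summed to 1728 to 5294 CPM (counts scaled for the depth of a library), and the lowest sums, 1728 to 2436 CPM, were those of PE with hairpin B. TP63, a marker of basal cells, averaged under 1 CPM in every group, at most 0.65 CPM. Fibroblast markers summed to 14.4 to 66.5 CPM, endothelial ones to 0.607 to 15.2 CPM and immune ones to 36.3 to 85.8 CPM. In each group 2 of the 8 immune markers averaged 1 CPM or more, while CD3E, a T cell marker, was without counts in 5 of the 6 groups.

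The start regions of the receptor, of urokinase and of the serpin are shown because the effect of hairpin B on PLAU and SERPINE2 differed between the lines and PLAUR was called higher with both CHD1 hairpins in PE. The sequences are RefSeq windows on GRCh38.p14 that run from 250 bases before to 50 bases after an annotated start, given 5′ to 3′ on the strand of the gene. Such windows were taken for 3 of the 4 genes, 5 windows in all. PLAT was left out of this search, so its start region was not examined. For each of the 3 genes 1 window is printed and, where there are 2, the one with more matches. Counts per gene do not tell which start was in use. Capitals mark matches, on either strand, to the AP-1 letters TGANTCA, the E-box letters CACGTG, its variant CACATG, the CCAAT letters and the GC box letters GGGCGG. The TATA letters TATAAA were searched too and are in none of the 3. The matches in these windows share no base.
PLAU, chr10:73910882-73911181, plus strand: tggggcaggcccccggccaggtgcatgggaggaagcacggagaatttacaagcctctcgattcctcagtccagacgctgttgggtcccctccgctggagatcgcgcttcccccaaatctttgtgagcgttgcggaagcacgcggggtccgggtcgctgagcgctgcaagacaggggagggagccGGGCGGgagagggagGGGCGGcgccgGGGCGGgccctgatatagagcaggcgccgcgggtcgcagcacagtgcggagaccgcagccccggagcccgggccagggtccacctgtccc
PLAUR, chr19:43670120-43670419, minus strand: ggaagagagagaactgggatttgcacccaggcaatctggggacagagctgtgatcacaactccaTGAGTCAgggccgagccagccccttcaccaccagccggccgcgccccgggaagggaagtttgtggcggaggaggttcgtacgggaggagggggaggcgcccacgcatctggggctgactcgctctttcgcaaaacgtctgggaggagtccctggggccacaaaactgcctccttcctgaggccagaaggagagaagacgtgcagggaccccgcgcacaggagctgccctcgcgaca
SERPINE2, chr2:224031429-224031728, minus strand: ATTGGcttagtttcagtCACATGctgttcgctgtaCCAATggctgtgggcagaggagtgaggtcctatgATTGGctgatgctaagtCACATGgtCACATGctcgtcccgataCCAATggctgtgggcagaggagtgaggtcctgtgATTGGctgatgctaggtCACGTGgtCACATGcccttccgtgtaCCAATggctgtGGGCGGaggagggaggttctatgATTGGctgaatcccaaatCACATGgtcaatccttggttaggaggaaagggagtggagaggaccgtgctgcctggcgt
The window of PLAU held 3 GC boxes and had a GC content of 70.0%. A GC box was found in 44.95% of the 35116 windows of that length. The window of PLAUR held 1 AP-1 match, TGAGTCA, which starts 186 bases before the annotated start of this window, and 7.709% of all windows held a match. The printed window of SERPINE2 held 1 canonical E-box, the letters MYC binds with its partner MAX. That match starts 87 bases before the annotated start of this window, and 7.256% of all windows held one. The same window held 5 CACATG matches and 7 CCAAT matches, laid out as a repeat, with 1 GC box. At least 5 CACATG matches were found in 0.01709% of all windows, and at least 7 CCAAT matches in 0.02278%. These cut-offs are the counts of this window, which was printed because it had more matches, so the shares are no test. The other SERPINE2 window, chr2:224038591-224038890, held 2 GC boxes and none of the E-box, CACATG or CCAAT letters. It lies nearer the outer bound of the gene, 224039319, than the printed window. All matches are of letters, with no measure of binding.

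Urokinase had the largest fitted change of the 4 genes with a CHD1 hairpin, a rise with hairpin B in PM. PLAU lies on chromosome 10, 73909177 to 73917497, plus strand (GRCh38), with 2.95 kb of annotated exon. With hairpin B, the 4 PM libraries had 16.4, 24.0, 23.9 and 14.9 CPM of PLAU, against 3.03, 4.56, 6.29 and 6.26 CPM in PM with the GFP hairpin. The lowest hairpin B library lay above the highest GFP library, so the groups did not overlap, as for 28.9% of all genes tested in that comparison. PLAU was 3.87-fold higher with hairpin B, a log2 change of 1.95 with a standard error (SE) of 0.23 and an adjusted p of 5.16e-07 (edgeR). In PM with hairpin A the libraries had 6.42, 5.11, 7.86 and 3.84 CPM, which overlapped those of the GFP hairpin. The log2 change there was 0.20, with a 95% interval of -0.28 to 0.68 and an adjusted p of 0.597. Between the CHD1 hairpins in PM, PLAU was 3.36-fold higher with B than with A, without overlap (adjusted p = 2.88e-06).

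In PE the change of urokinase with hairpin B was smaller and missed the threshold. PLAU had 16.8, 23.7, 21.4 and 18.8 CPM in PE with hairpin B, against 13.6, 11.7, 17.9 and 10.8 CPM in PE with the GFP hairpin. Only the third GFP library reached into the range of hairpin B. The log2 change was 0.57, with a 95% interval of 0.10 to 1.04 and an adjusted p of 0.069, and without that GFP library it was 0.78 and passed (adjusted p = 0.0198). It also passed without PM with the GFP hairpin replicate 1, at 0.57 (adjusted p = 0.041), and with DESeq2, at 0.57 (adjusted p = 0.0295). The adjusted p stayed above 0.05 in only 3 of 8 other settings. With the replicate number as a block in the edgeR fit, for example, the change was 0.60 and passed (adjusted p = 0.00975). With hairpin A the PE libraries had 15.2, 13.4, 14.9 and 10.8 CPM and the change from the GFP hairpin was near 0, with an interval of -0.47 to 0.47. PLAU was 1.48-fold higher with B than with A in PE, in groups that did not overlap but with an adjusted p of 0.0828. Without PM with the GFP hairpin replicate 1 that p was 0.049, and it stayed above 0.05 in only 2 of 8 other settings. The effect of hairpin B differed between the lines by 1.38 on the log2 scale (SE 0.32, adjusted p = 0.0149), higher in PM than in PE. That difference in effect passed for 2.45% of all genes tested, and for 1.47% with the higher effect in PM. The same difference passed for 6 of the 12 epithelial markers, all with the higher effect in PM, and their part in that of PLAU was not tested. For hairpin A it was 0.20, with an interval of -0.47 to 0.88.

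An antisense gene, C10orf55, overlaps PLAU. The kit keeps strand and the strand setting of the counting is not given in the sources used here. C10orf55 had 0 to 50 counts and at most 0.628 CPM in any library, against at least 3.03 CPM for PLAU.

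**Figure D1:**
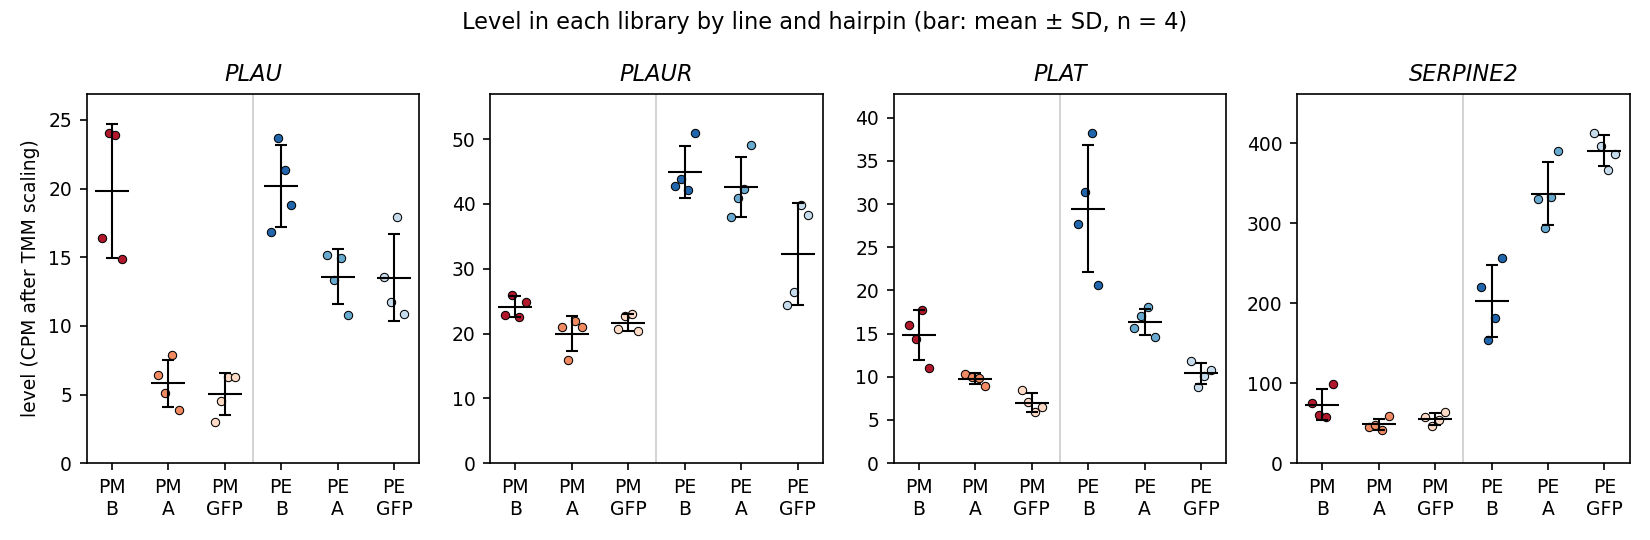
Level of PLAU, PLAUR, PLAT and SERPINE2 in CPM after TMM scaling (vertical axis) in each of the 24 libraries, by line and hairpin. Points are libraries, bars the mean ± SD of 4. PLAU in PM stands at 14.9 to 24.0 CPM with hairpin B and at 3.03 to 6.29 CPM with the GFP hairpin, PLAT is lowest in PM with the GFP hairpin, and SERPINE2 in every PM library is below every PE library.

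The receptor was called with neither CHD1 hairpin in PM. PLAUR lies on chromosome 19, 43646095 to 43670547, minus strand, with 4.457 kb of exon. In PM the libraries had 22.9, 25.97, 22.6 and 24.9 CPM with hairpin B, 21.0, 16.0, 22.0 and 21.0 CPM with hairpin A, and 20.6, 22.7, 23.1 and 20.4 CPM with the GFP hairpin. Both CHD1 hairpins overlapped the GFP hairpin. The log2 change from the GFP hairpin was 0.15 with B (95% interval -0.09 to 0.39, adjusted p = 0.407) and -0.12 with A (-0.36 to 0.12, adjusted p = 0.524). The difference of B from A was 0.27 (adjusted p = 0.0959), in groups that did not overlap.

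In PE the receptor was higher with both CHD1 hairpins. PLAUR had 42.8, 43.9, 42.1 and 50.9 CPM in PE with hairpin B, 38.02, 40.9, 42.3 and 49.0 CPM with hairpin A, and 24.5, 26.4, 39.8 and 38.2 CPM with the GFP hairpin. The GFP libraries fell into a lower pair, replicates 1 and 2, and a higher pair, and the lower pair were also the shallowest of all libraries, at 4.14 M and 18.9 M counts; the part of depth in this was not tested. PLAUR was 1.36-fold higher with hairpin B, a log2 change of 0.44 (SE 0.12, adjusted p = 0.00461), with no overlap. It was 1.29-fold higher with hairpin A, a log2 change of 0.36 (SE 0.12, adjusted p = 0.0267), with groups that overlapped. The call with hairpin A was lost without PE with hairpin A replicate 4 (log2 0.28, adjusted p = 0.11), without PE with the GFP hairpin replicate 1 (0.28, adjusted p = 0.0831) and without replicate 2 (0.27, adjusted p = 0.139). It was also lost with limma-voom, at 0.25 (adjusted p = 0.12), with library sizes alone, at 0.30 (adjusted p = 0.051), and with only the compared groups in the fit, at 0.35 (adjusted p = 0.0709). The effect of hairpin A differed between lines by -0.48 (PM minus PE, adjusted p = 0.083). That difference passed without PE with the GFP hairpin replicate 3, at -0.60 (adjusted p = 0.0227), or replicate 4, at -0.57 (adjusted p = 0.0425). For hairpin B the difference was -0.29, with an interval of -0.63 to 0.05. A small RNA gene, RN7SL368P, overlaps PLAUR on the same strand, and reads in the overlap could be counted for either.

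Tissue-type activator was the only member called higher with both CHD1 hairpins in both lines. PLAT lies on chromosome 8, 42175233 to 42207724, minus strand, with 6.618 kb of exon. In PM the libraries had 16.0, 14.4, 17.8 and 11.1 CPM with hairpin B, 10.3, 9.98, 9.90 and 8.89 CPM with hairpin A, and 8.47, 7.13, 5.88 and 6.46 CPM with the GFP hairpin. No library of either CHD1 hairpin fell into the GFP range, although the lowest hairpin A library, 8.89 CPM, stood close to the highest GFP library. PLAT was 2.14-fold higher with hairpin B (log2 1.10, SE 0.15, adjusted p = 6.61e-07) and 1.41-fold higher with hairpin A (log2 0.50, SE 0.15, adjusted p = 0.0127). The call with hairpin A was lost without PM with the GFP hairpin replicate 3, at a log2 change of 0.43 (adjusted p = 0.0627).

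In PE the same gene had 27.7, 31.4, 38.2 and 20.6 CPM with hairpin B, 15.6, 17.0, 18.0 and 14.7 CPM with hairpin A, and 11.8, 8.88, 10.1 and 10.8 CPM with the GFP hairpin. The 3 groups did not overlap, with hairpin B highest and the GFP hairpin lowest. PLAT was 2.88-fold higher with hairpin B (log2 1.52, SE 0.16, adjusted p = 1.88e-09) and 1.59-fold higher with hairpin A (log2 0.67, SE 0.16, adjusted p = 0.00156). Hairpin B gave higher PLAT than hairpin A in both lines, by 0.60 on the log2 scale in PM (adjusted p = 0.00229) and by 0.85 in PE (adjusted p = 5.36e-05). The effect differed between lines by -0.43 for hairpin B (PM minus PE, interval -0.86 to 0.01) and by -0.18 for hairpin A (-0.62 to 0.27), and neither passed. Over all genes tested, 6.46% were called higher with both hairpins in PM and 6.75% in PE. The share called in the same direction with both hairpins in both lines was not counted, for PLAT or for the pathway genes below. The hairpins share their GFP libraries in each line.

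Protease nexin-1 was the only member called lower under knockdown. SERPINE2 lies on chromosome 2, 223975112 to 224039319, minus strand, with 8.891 kb of exon. In PE it had 220, 154, 181 and 257 CPM with hairpin B, 330, 294, 332 and 390 CPM with hairpin A, and 413, 396, 366 and 387 CPM with the GFP hairpin. Every hairpin B library was below every other PE library. SERPINE2 with hairpin B was 0.521 of its level with the GFP hairpin, a log2 change of -0.94 (SE 0.17, adjusted p = 0.000279). With hairpin A the change was -0.21 (interval -0.56 to 0.14, adjusted p = 0.454). With only these groups in the fit, that change was -0.23 and passed (adjusted p = 0.0413). The log2 difference of hairpin B from hairpin A was -0.73 (adjusted p = 0.00473). The epithelial markers moved in the same libraries, with 9 of 12 called lower and 2 called higher with hairpin B in PE, where 13.2% of all genes were called lower and 13.6% higher, and sums of 1728 to 2436 CPM, against 3528 to 5294 CPM with the GFP hairpin. Their part in the change of SERPINE2 was not tested.

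In PM the serpin had 75.2, 60.2, 57.3 and 99.2 CPM with hairpin B, 44.8, 48.1, 41.8 and 58.7 CPM with hairpin A, and 58.2, 46.1, 53.9 and 63.7 CPM with the GFP hairpin. The ranges of all 3 groups overlapped. The log2 change from the GFP hairpin was 0.40 with hairpin B (interval 0.04 to 0.76, adjusted p = 0.0944) and -0.20 with hairpin A (-0.56 to 0.16, adjusted p = 0.454). Without PM with hairpin B replicate 3, the change with B was 0.50 and passed (adjusted p = 0.0467). It also passed with library sizes alone, at 0.44 (adjusted p = 0.0493), and when only genes with 5 CPM or more in 4 libraries were kept, at 0.43 (adjusted p = 0.0387). SERPINE2 was 1.51-fold higher with B than with A in PM (adjusted p = 0.0135), a call lost without PM with hairpin B replicate 4, at 0.42 (adjusted p = 0.0537). The effect of hairpin B differed between lines by 1.34 on the log2 scale (SE 0.24, adjusted p = 0.0029). The log2 change was 0.40 in PM and -0.94 in PE. For hairpin A that difference was 0.01, with an interval of -0.49 to 0.52.

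**Figure D2:**
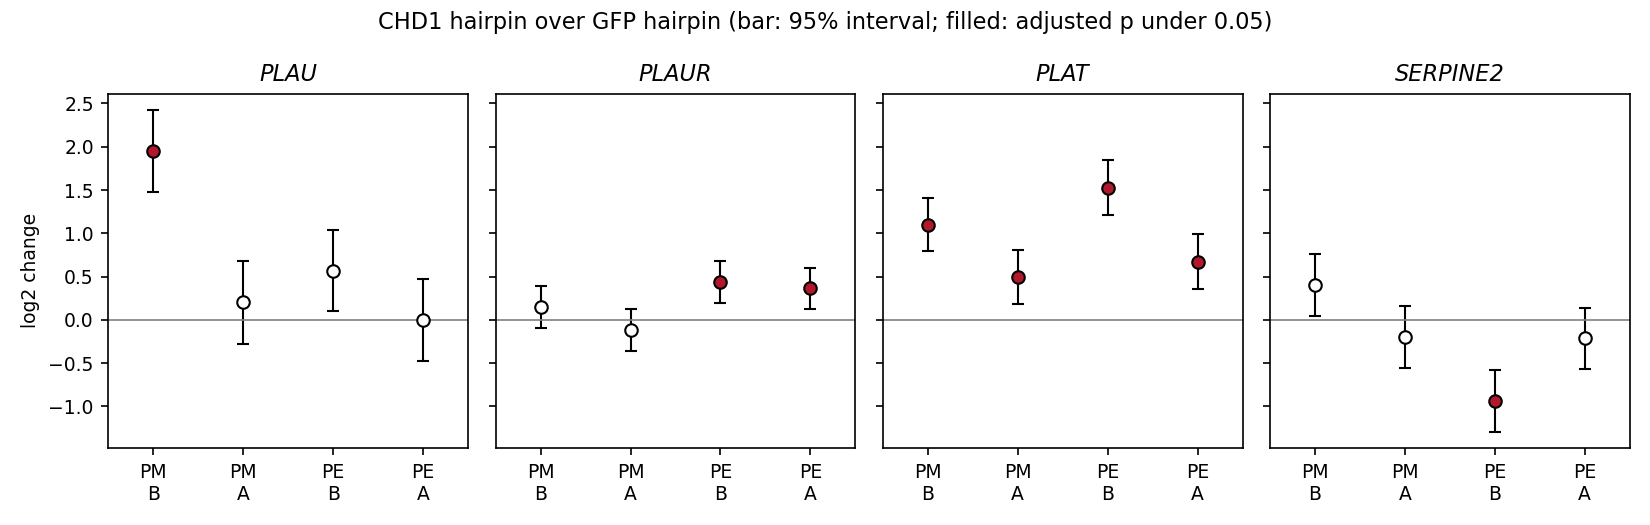
Log2 change of each gene with a CHD1 hairpin over the GFP hairpin (vertical axis) for hairpins B and A in PM and in PE. Bars are 95% intervals and filled points have an adjusted p under 0.05. PLAT lies above 0 in all 4 comparisons, PLAU stands at 1.95 in PM with hairpin B, and SERPINE2 lies at -0.94 in PE with hairpin B and at 0.40 in PM with hairpin B.

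By comparison, the members called were 2 of 4 with hairpin B in PM (PLAU and PLAT, both higher), where 28.1% of all genes tested were called and 13.6% were called higher. With hairpin A in PM it was 1 of 4 (PLAT, higher), where 27.8% were called, 13.4% were called higher, and the groups did not overlap for 29.1%. With hairpin B in PE it was 3 of 4 (PLAUR and PLAT higher, SERPINE2 lower), where 26.8% were called, 13.6% higher and 13.2% lower, and 25.2% did not overlap. With hairpin A in PE it was 2 of 4 (PLAUR and PLAT higher), where 20.2% were called, 10.9% higher, and 21.2% did not overlap. Between B and A, 2 of 4 were called in PE (PLAT higher with B, SERPINE2 lower), where 16.6% of all genes were called, 7.48% higher and 9.09% lower. In PM 3 of 4 were called, all higher with B (PLAU, PLAT and SERPINE2), where 26.3% were called and 12.7% were called higher. Between B and A, groups did not overlap for 26.2% of all genes in PM and for 20.6% in PE. The difference in the effect of hairpin A between lines was called for none of the 4 by edgeR, DESeq2 or limma-voom, and by edgeR for 6.66% of all genes tested. At an unadjusted p under 0.05, edgeR gave 1 of the 4, PLAUR. With 4 genes these shares are coarse, and each is read only beside the values of the genes above. In bulk RNA, fewer cells that make a transcript and less of it per cell cannot be told apart.

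All 4 genes were lower in PM than in PE under the GFP hairpin, in groups that did not overlap for any of them. Over all genes tested, 25.5% were called, 11.4% were called lower, and 24.9% did not overlap. SERPINE2 had the largest difference, with 46.1 to 63.7 CPM in PM and 366 to 413 CPM in PE, 7.04-fold lower in PM (log2 -2.81, SE 0.18, adjusted p = 5.44e-10). PLAU, with 3.03 to 6.29 CPM in PM and 10.8 to 17.9 CPM in PE, was 2.65-fold lower in PM (log2 -1.41, SE 0.24, adjusted p = 6.13e-05). PLAUR was 1.53-fold lower (log2 -0.61, adjusted p = 0.000174) and PLAT 1.48-fold lower (log2 -0.56, adjusted p = 0.00696). PM and PE are 2 lines compared over libraries, so any difference between the lines other than MYC is included.

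Under hairpin A the same 4 genes were lower in PM, where 39.9% of all genes were called, 19.8% lower, and 38.4% did not overlap. The log2 differences were -2.80 for SERPINE2 (adjusted p = 1.39e-10), -1.20 for PLAU (adjusted p = 0.00013), -1.09 for PLAUR (adjusted p = 2.48e-09) and -0.74 for PLAT (adjusted p = 0.000114). Under hairpin B, 3 of the 4 were lower in PM, where 30.1% of all genes were called, 14.5% lower, and 29.6% did not overlap. SERPINE2 was lower by a log2 difference of -1.48 (adjusted p = 1.39e-06), PLAT by -0.99 (adjusted p = 1.85e-06) and PLAUR by -0.90 (adjusted p = 1.98e-07). The epithelial markers moved in the same libraries, with 8 of 12 called higher in PM under hairpin B (median log2 difference 1.52), where 15.7% of all genes were called higher, and their part in these differences was not tested. PLAU did not pass there. It averaged 19.8 ± 4.86 CPM in PM and 20.2 ± 2.99 CPM in PE (SD, n = 4 each), and the log2 difference was -0.02 with an interval of -0.48 to 0.43.

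**Figure D3:**
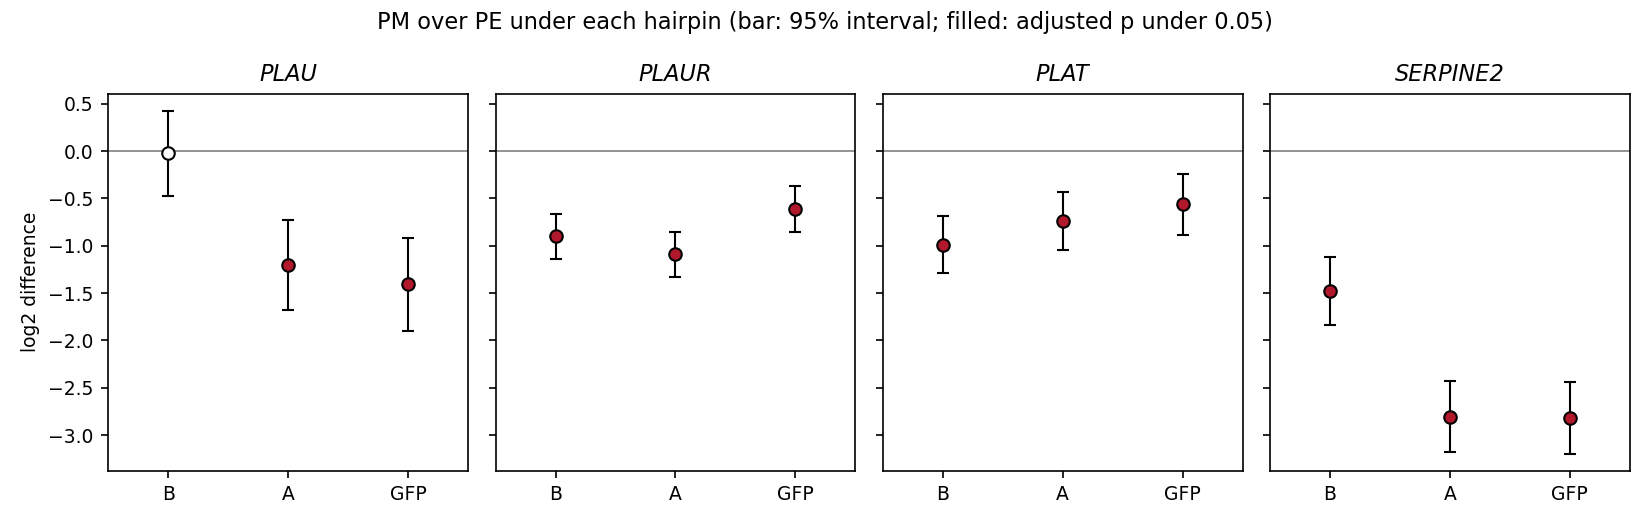
Log2 difference of each gene in PM over PE (vertical axis) under hairpin B, hairpin A and the GFP hairpin. Bars are 95% intervals and filled points have an adjusted p under 0.05. PLAU lies at -0.02 under hairpin B and at -1.41 under the GFP hairpin, while SERPINE2 lies at -1.48 under hairpin B and at -2.81 under the GFP hairpin.

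The order of the groups differed from gene to gene. PLAU was highest in PE with hairpin B, followed by PM with hairpin B, PE with hairpin A, PE with the GFP hairpin, PM with hairpin A and PM with the GFP hairpin. Only 1 pair of neighbours in that order differed, PM with hairpin A at 5.81 CPM, below PE with the GFP hairpin at 13.5 CPM (adjusted p = 0.000157). PLAUR ran from PE with hairpin B through PE with hairpin A, PE with the GFP hairpin, PM with hairpin B and PM with the GFP hairpin to PM with hairpin A. Its neighbours differed at PE with hairpin A and PE with the GFP hairpin, as given above, and at PM with hairpin B and PE with the GFP hairpin (adjusted p = 0.00238). PLAT ran from PE with hairpin B through PE with hairpin A, PM with hairpin B, PE with the GFP hairpin and PM with hairpin A to PM with the GFP hairpin. PM with hairpin B, at 14.8 ± 2.86 CPM, was above PE with the GFP hairpin, at 10.4 ± 1.22 CPM (SD, n = 4 each, adjusted p = 0.00628). The steps between the PE groups with B and A and between the PM groups with A and GFP differed too, as given above. SERPINE2 ran from PE with the GFP hairpin through PE with hairpin A, PE with hairpin B, PM with hairpin B and PM with the GFP hairpin to PM with hairpin A. Its neighbours differed on both sides of PE with hairpin B, which averaged 203 ± 45.0 CPM (SD, n = 4).

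Levels can be set side by side between genes only per length of exon, here in CPM per kb of annotated exon. By group means, SERPINE2 had the highest level of the 4 in each of the 6 groups and PLAT the lowest, without a test. Single libraries departed from that order, with a ratio of SERPINE2 to PLAU of 0.831 and 0.795 in PM with hairpin B replicates 2 and 3. In PM with hairpin A replicate 3, SERPINE2 at 4.70 CPM per kb was below PLAUR at 4.93. The ratio of PLAT to PLAU was 1.03 in PM with hairpin A replicate 4 and 1.25 in PM with the GFP hairpin replicate 1. In PM with hairpin B the mean levels were 8.21 CPM per kb for SERPINE2, 6.72 for PLAU, 5.41 for PLAUR and 2.24 for PLAT. In PM with the GFP hairpin they were 6.24 for SERPINE2, 1.71 for PLAU, 4.87 for PLAUR and 1.06 for PLAT. The mean of PLAU thus stood above that of PLAUR in the first group and below it in the second. In PE with hairpin B the levels were 22.8 for SERPINE2, 6.84 for PLAU, 10.1 for PLAUR and 4.46 for PLAT, and in PE with the GFP hairpin 43.9 for SERPINE2, 4.58 for PLAU, 7.23 for PLAUR and 1.57 for PLAT.

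Ratios within a library give the balance of the members without the scaling between libraries, and are given as a description. The ratio of PLAU to PLAUR per kb averaged 1.25 ± 0.314 in PM with hairpin B, 0.441 ± 0.114 in PM with hairpin A and 0.350 ± 0.109 in PM with the GFP hairpin (SD, n = 4 each). The libraries ran from 0.901 to 1.60 with hairpin B and from 0.221 to 0.464 with the GFP hairpin in PM. In PE the ratio averaged 0.683 ± 0.127 with hairpin B, 0.490 ± 0.114 with hairpin A and 0.654 ± 0.169 with the GFP hairpin. The ratio of SERPINE2 to PLAU averaged 1.34 ± 0.671 in PM with hairpin B, 3.07 ± 1.45 in PM with hairpin A and 3.99 ± 1.61 in PM with the GFP hairpin. In PE it averaged 3.46 ± 1.16 with hairpin B, 8.48 ± 2.34 with hairpin A and 9.98 ± 2.26 with the GFP hairpin. The mean ratio of serpin to urokinase was lowest with hairpin B in both lines, though in PM the hairpin B libraries (0.795 to 2.21) overlapped those of hairpin A (1.77 to 5.07). The ratio of PLAT to PLAU averaged 0.341 ± 0.0695 in PM with hairpin B, 0.795 ± 0.202 in PM with hairpin A and 0.705 ± 0.382 in PM with the GFP hairpin. In PE it averaged 0.653 ± 0.139 with hairpin B, 0.543 ± 0.0618 with hairpin A and 0.355 ± 0.0813 with the GFP hairpin.

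**Figure D4:**
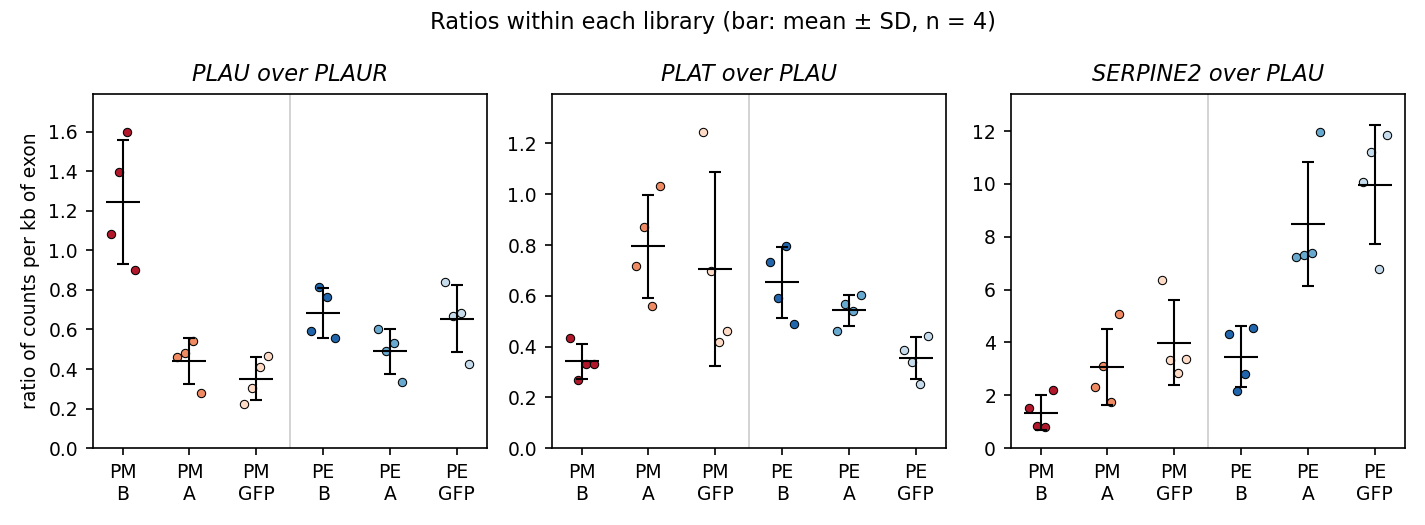
Ratio of 2 genes within each library, each per kb of annotated exon (vertical axis), for PLAU over PLAUR, PLAT over PLAU and SERPINE2 over PLAU, by line and hairpin. Points are libraries, bars the mean ± SD of 4. PLAU over PLAUR stands at 0.901 to 1.60 in PM with hairpin B and at 0.221 to 0.464 in PM with the GFP hairpin, and SERPINE2 over PLAU is highest in PE with hairpin A and with the GFP hairpin.

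Beyond the 4 members, 40 genes of the pathway were counted by role, and 31 of them passed the filter. Plasminogen itself (PLG) did not, with no more than 0.189 CPM in any library, and neither did the matrix ligand of the receptor, vitronectin (VTN). With hairpin B in PM, 9 of the 31 were higher and 5 lower, with a median log2 change of 0.10, against 0.01 over all genes tested, of which 13.6% were higher and 14.4% lower. With hairpin A in PM, 2 were higher and 11 lower (median -0.18, all genes -0.01), against 13.4% higher and 14.3% lower over all genes. In PE, 11 were higher and 6 lower with hairpin B (median 0.25, all genes 0.01), against 13.6% higher and 13.2% lower over all genes. With hairpin A in PE, 10 were higher and 5 lower (median 0.17, all genes -0.00), against 10.9% higher and 9.33% lower over all genes. Between PM and PE under the GFP hairpin, 4 were higher and 16 lower in PM (median -0.52, all genes 0.02), against 14.1% higher and 11.4% lower over all genes.

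Among the serpins, SERPINA5, the protein C inhibitor, was called higher with both CHD1 hairpins in both lines, as PLAT was, with log2 changes of 1.86 and 1.72 in PM with B and A, and of 1.30 and 1.32 in PE with B and A. It averaged 6.52 ± 1.98 CPM in PM with hairpin B and 1.84 ± 0.464 CPM in PM with the GFP hairpin (SD, n = 4 each).

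The urokinase inhibitor SERPINB2 moved the other way and was lower in all 4 comparisons. In PE it averaged 0.446 ± 0.304 CPM with hairpin B and 0.925 ± 0.780 CPM with hairpin A, and 10.4 ± 3.98 CPM with the GFP hairpin (SD, n = 4 each). In PM it reached at most 0.156 CPM with hairpin B and 0.328 CPM with hairpin A, with no count in some libraries, and 1.20 to 3.52 CPM with the GFP hairpin. The fitted log2 changes were -4.84 and -4.51 in PM with B and A, and -4.59 and -3.45 in PE with B and A, and those in PM rest on a few counts. The neuronal serpin SERPINI1 was lower in 1 of the 4, PM with hairpin A (log2 -1.10, adjusted p = 0.00387). Of the 3 other inhibitors tested, 2 were lower with each hairpin in PE, where 13.2% (B) and 9.33% (A) of all genes were. They were SPINT2 and TFPI2 with B, and SPINT2 and SPINT1 with A. In PE, SPINT1 averaged 87.1 CPM with hairpin B, 60.2 CPM with hairpin A and 76.5 CPM with the GFP hairpin. In PM 1, TFPI2, was lower with each, where 14.4% (B) and 14.3% (A) were. There 1, SPINT1, was higher with B, at 69.3 CPM against 53.1 CPM with the GFP hairpin, where 13.6% of all genes were higher. SPINT2 was lower in PE with hairpin B (-0.59, adjusted p = 4.42e-06) and A (-0.94, adjusted p = 1.5e-09). Its change with hairpin A differed between lines by 0.78 (PM minus PE, adjusted p = 0.000119). TFPI2, which inhibits plasmin, was lower in PM with hairpins B and A (-1.60 and -1.99). In PE the change of TFPI2 was -1.10 with hairpin B (adjusted p = 0.0495). That call held in 8 of 8 other settings but in only 6 of the 24 fits that left out 1 library. It was lost, for example, at -0.93 without PE with hairpin B replicate 3 (adjusted p = 0.15). With hairpin A in PE the change of TFPI2 was -0.89 (adjusted p = 0.139). It passed with limma-voom (-1.10, adjusted p = 0.00689), without the filter (-0.89, adjusted p = 0.0179) and with only the compared groups (-0.93, adjusted p = 0.0158).

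The list of endocytic receptors that clear the activator complexes had 5 genes tested. They were the receptors LRP1, VLDLR, SORL1 and MRC2 and their chaperone LRPAP1. Those called with a CHD1 hairpin were higher, but SORL1 had a log2 change of -0.68 with hairpin A in PE (adjusted p = 0.249). Without PE with the GFP hairpin replicate 2 that change passed, at -1.05 (adjusted p = 0.0194). The effect of hairpin A on SORL1 differed between lines by 1.88 (PM minus PE, adjusted p = 0.0267). That call held in 17 of the 24 fits that left out 1 library. With hairpin B, 3 of the 5 genes were higher in PM and 5 of 5 in PE, where 13.6% of all genes were called higher in each line. With hairpin A it was 1 of 5 in PM, where 13.4% of all genes were higher, and 3 of 5 in PE, where 10.9% were. The call of SORL1 with hairpin B in PM (log2 0.95, adjusted p = 0.0438) held in 10 of the 24 fits that left out 1 library, with an adjusted p of up to 0.128, and that of VLDLR with hairpin A in PE (1.18, adjusted p = 0.0295) in 19 of 24, with an adjusted p of up to 0.102. Their median log2 changes were 0.90 in PM with hairpin B, 0.28 in PM with hairpin A, 1.51 in PE with hairpin B and 0.63 in PE with hairpin A. LRP1, the main one, averaged 69.9 ± 16.4 CPM in PM with hairpin B and 16.5 ± 5.86 CPM in PM with the GFP hairpin (SD, n = 4 each), a log2 change of 2.08 (adjusted p = 4.32e-06). In PM with hairpin A its change was 0.55 (adjusted p = 0.129), and in PE it was 1.22 with B (adjusted p = 0.000884) and 1.01 with A (adjusted p = 0.006). MRC2, a collagen receptor that binds the urokinase receptor complex, was higher with hairpin B in PM (0.90, adjusted p = 0.000192) and in PE (1.67, adjusted p = 6.75e-08), and with hairpin A in PE (0.63, adjusted p = 0.00725).

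Of the proteases that activate pro-urokinase, matriptase (ST14) was lower with both CHD1 hairpins in both lines. It averaged 114 ± 5.89 CPM in PM with hairpin B, 139.96 ± 8.99 CPM with hairpin A and 163 ± 8.83 CPM with the GFP hairpin, and in PE 37.2 ± 1.24, 30.7 ± 3.13 and 79.1 ± 9.51 CPM with B, A and the GFP hairpin (SD, n = 4 each). With hairpin A in PM the change was small, -0.22 (adjusted p = 0.026), and the call was lost when 1 of several libraries was left out, for example at -0.19 without PM with hairpin A replicate 1 (adjusted p = 0.11). ST14 was higher in PM than in PE under the GFP hairpin (log2 1.05, adjusted p = 1.36e-12), where all 4 members were lower. Its fall was smaller in PM than in PE, by 1.14 on the log2 scale for hairpin A (adjusted p = 1.37e-08) and by 0.56 for hairpin B (adjusted p = 0.00173). Cathepsin B (CTSB) was higher with hairpin B in PE (0.60, adjusted p = 0.001) and lower with hairpin A in PM (-0.49, adjusted p = 0.00538). With hairpin A in PM, 3 of the 4 proteases tested were lower (ST14, CTSB and CTSL), where 14.3% of all genes were. Cathepsin L (CTSL) averaged 137 ± 12.7 CPM there and 196 ± 22.6 CPM in PM with the GFP hairpin (SD, n = 4 each). In PM with B and in PE with B and A, 1 of 4 was lower, where 14.4%, 13.2% and 9.33% of all genes were.

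Among the integrins that pair with the receptor, 3 of 7 were higher with hairpin B in PM, 3 of 7 with hairpin B in PE and 3 of 7 with hairpin A in PE, and 4 of 7 were lower with hairpin A in PM. Over all genes, 13.6%, 13.6% and 10.9% were called higher in the first 3 of these comparisons, and 14.3% lower in the last. The call of ITGB1 with hairpin A in PE (log2 0.42, adjusted p = 0.0465) held in 4 of 8 other settings and in 10 of the 24 fits that left out 1 library, with an adjusted p of up to 0.145. That of ITGB6 with hairpin A in PM (-0.79, adjusted p = 0.038) held in 15 of 24, with an adjusted p of up to 0.13. In both comparisons in PE 1 of 7, ITGB6, was lower. ITGB1 and ITGA3 were higher with hairpin B in PM (0.67 and 0.44) and in PE (0.55 and 0.54). ITGB6, an epithelial integrin chain, had a log2 change of -5.22 in PE with hairpin B (adjusted p = 8.92e-11), beside the fall of the epithelial markers there, whose part in it was not tested. In PM with hairpin B its change was -0.58 (adjusted p = 0.125), and the 2 effects differed by 4.63 (adjusted p = 4.98e-07). Among the substrates, MST1, which encodes the precursor of macrophage-stimulating protein, was higher with hairpin B in PM (1.59, adjusted p = 3.09e-07) and in PE (0.82, adjusted p = 0.00396).

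**Figure D5:**
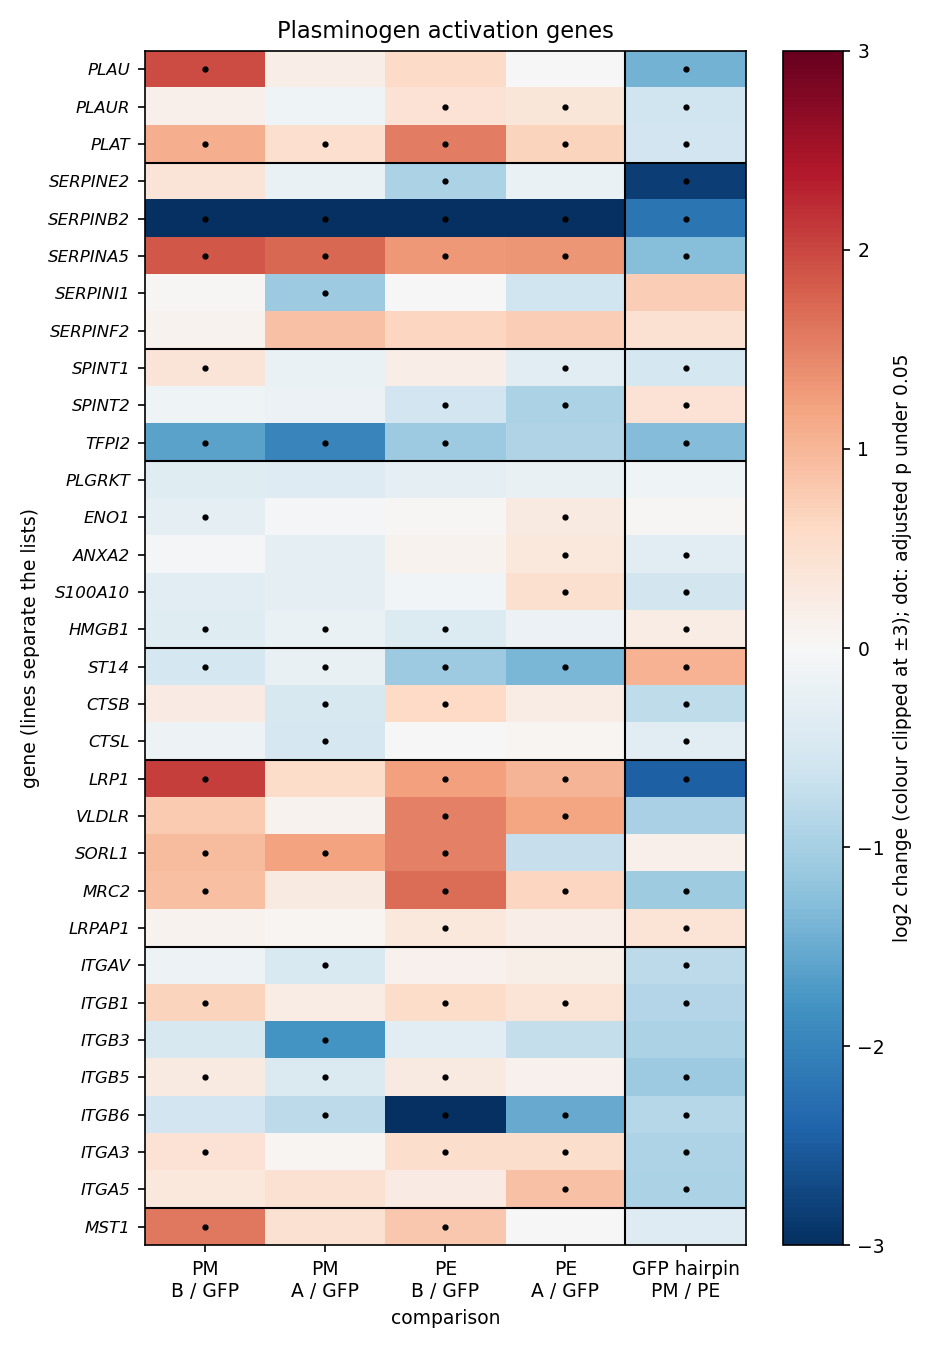
Log2 change of the members and of the counted pathway genes that passed the filter and averaged 1 CPM or more in some group (rows, in order of role, with lines between lists) in 5 comparisons (columns): CHD1 hairpin over GFP hairpin in PM and PE, and PM over PE under the GFP hairpin. Colour is the log2 change, clipped at 3 in each direction, and a dot marks an adjusted p under 0.05. PLAT and SERPINA5 are dotted and red in all 4 hairpin columns, SERPINB2 and ST14 dotted and blue in those columns.

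The genes whose levels followed a member most closely were found by Pearson correlation of log2 CPM over the 24 libraries, among 10113 protein-coding genes that averaged 5 CPM or more. The libraries share depth, line and hairpin, so these values describe the pattern and carry no p. PLAU was closest to CAPN1, MICAL1, CD82 and C22orf23, each at 0.90. PLAUR was closest to ARHGEF10L (0.97), TRAM2 (0.96), LIMCH1 (0.96) and TCAF2 (0.95). PLAT was closest to MYLK (0.94), FAM167A (0.93), MYOF (0.93) and COL7A1 (0.93). SERPINE2 was closest to TNC, DUSP4 and DENND3 (0.97 each) and PRG4 (0.96). By Spearman correlation these genes stood at places 1 to 147, and over the means of the 6 groups at places 1 to 58. No gene was named for more than 1 member, and no member was among the closest genes of another. Between the members themselves the correlation was 0.79 for PLAUR and SERPINE2, 0.75 for PLAU and PLAT, 0.68 for PLAUR and PLAT, 0.62 for PLAU and PLAUR, 0.51 for PLAU and SERPINE2 and 0.40 for PLAT and SERPINE2.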

How the data were processed

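Gene counts of 24 libraries were deposited as 1 table. Reads were handled with FastQC, Trim Galore 0.4.0, HISAT2 2.2.1 and featureCounts on GRCh38, per the submitters' processing notes. Which annotation and strand setting featureCounts was given, and what was done with reads of several matches, is not given in the sources used here. Per the labels' protocols, libraries came from poly(A) RNA with a directional kit.

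From the deposited counts, edgeR 4.0.16 (R 4.3.3) was run on all 24 libraries with 1 mean per group, TMM scaling, its default filter on low counts, robust quasi-likelihood tests and Benjamini-Hochberg adjustment over 20820 genes, at a threshold of 0.05. SEs are the log2 change over the root of its F, and intervals are approximate 95% intervals. Every column was mapped to a sample. CPM per kb uses the exon length of GENCODE 29, which may not be the release used for counting. limma 3.58.1 (voom), DESeq2 1.42.0, other scalings and filters, the replicate number as a block, the compared groups alone and leaving out each library were the alternatives. Levels next to each other in the order of groups were compared by further contrasts of the same fit. The scripts were tested on simulated data. Intervals and levels cover these libraries only.

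The named genes are the 4 members in every comparison, genes of the pathway lists, the 4 protein-coding genes most like each member, and CHD1 and MYC. The members and lists were chosen with earlier results of these data known. A gene of the lists is not reported here and was left out of their counts. Promoter windows are from RefSeq.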

Additional observations from a re-analysis of the deposited data

Results flagged for a closer look

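PLAUR in PM with hairpin A replicate 2 stood apart from its group at 16.0 CPM, with the other libraries at 21.0 to 22.0 CPM, by Dixon's test with a critical value of 0.829. This was the only library so marked among 24 sets of 4 libraries, and chance marks about 5% of such sets.

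The effect of hairpin B on PLAU differed between the lines by 1.38 on the log2 scale in the test of that difference. The log2 change was 1.95 in PM and 0.57 in PE. The effect of hairpin B on SERPINE2 differed by 1.34. The change was 0.40 in PM and -0.94 in PE.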

How the results depend on the processing

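Of 352 values of the 4 genes under other settings, 325 kept their direction and side of the threshold, as did 1034 of 1056 with a library left out. The cause of a change was not tested. PLAUR with hairpin A in PE no longer passed at 0.30 (library sizes alone), 0.25 (limma-voom) and 0.35 (compared groups alone), and ran from 0.27 to 0.48 with a library left out. Values that passed only under an alternative were these. PLAU with hairpin B in PE passed at 0.57 (DESeq2), 0.57 (no filter), 0.57 (at least 5 CPM in 4 libraries) and 0.58 (compared groups alone), with 0.46 to 0.78 over libraries left out. PLAU with B over A in PE passed at 0.58 (DESeq2), 0.57 (limma-voom), 0.58 (no filter), 0.60 (5 CPM filter) and 0.57 (compared groups alone), with 0.48 to 0.65 over libraries left out. PLAUR with B over A in PM passed at 0.32 (library sizes alone), 0.27 (no filter) and 0.30 (5 CPM filter). SERPINE2 with hairpin B in PM passed at 0.44 (library sizes alone) and 0.43 (5 CPM filter), with 0.23 to 0.50 over libraries left out, and with hairpin A in PE at -0.23 (compared groups alone). The difference between lines for PLAUR with hairpin A passed at -0.48 (no filter) and ran from -0.60 to -0.38 with a library left out. The range was 0.43 to 0.60 for PLAT with hairpin A in PM and 0.42 to 0.70 for SERPINE2 with B over A in PM. Values near 0 changed sign. PLAU in PM over PE with hairpin B was 0.0105 with library sizes alone and ran from -0.143 to 0.0757 with a library left out. The difference between lines for SERPINE2 with hairpin A was -0.0284 with limma-voom and ran from -0.0712 to 0.105, that for PLAU with hairpin A from -0.00285 to 0.368, and PLAU with hairpin A in PE from -0.11 to 0.20. The count of genes with a difference between lines for hairpin B was 510, and 829 without the filter. Library sizes alone, against TMM, put the share of calls that were higher at 39.2% against 53.8% with hairpin A in PE, 56.4% against 45.1% for B over A in PE, 58.6% against 48.5% for B over A in PM, and, for the difference between lines, 56.5% against 41.5% with hairpin A and 71.5% against 60.0% with hairpin B. The same settings were applied, after seeing the data, to 86 tests of CHD1, MYC and genes of the pathway lists. Of their 2751 values, 2594 kept direction and side of the threshold. These tests include ANXA2 and S100A10, which bind plasminogen at the cell surface, and leave out SPINT1 and CTSL.

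The labels do not say that a number ties libraries together. In deviations from the group means, 21 of 24 libraries correlated best with a library of their own number. The correlations were low, with a median of 0.04 over 60 pairs with the same number, against -0.01 for pairs with other numbers. Of the 60 pairs, 2 were over 0.1. The sample numbers in the column names ran in order of replicate. The main tests left such a tie out. With the replicate number as a block, PLAU with hairpin B in PE (0.60), PLAU with B over A in PE (0.57), PLAUR with B over A in PM (0.27), SERPINE2 with hairpin B in PM (0.38) and the difference between lines for PLAUR with hairpin A (-0.50) passed, and PLAU with hairpin A in PE was 0.0375. The block gave 2184 and 1003 genes with a difference between lines for hairpins A and B, against 1386 and 510 without it.

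The shallowest library holds 4.14 M counts, which limits PE with the GFP hairpin most.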
